A study of Mus musculus with 32 samples.

Results

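Tgfbr1 KO soleus was compared with control soleus: 4 libraries from mice that lost Tgfbr1 in their muscle fibres against 4 libraries from control mice. These 8 libraries were chosen by their labelled muscle and genotype, out of 32 in the series, and every gene of the count table was considered. In the Tgfbr1 KO mice, knockout of Tgfbr1 alone was induced by tamoxifen at 6 weeks of age and was restricted to myofibres. The left soleus was taken 3 months after knockout and polyA RNA was sequenced from the whole muscle. The controls are given by the labels as control only. The same treatment and timing are recorded for them as for the knockouts, but the wording speaks only of inducing the knockout. It does not say separately whether the controls were injected or what alleles they carried, nor which promoter drove the recombinase. Each library came from a separate mouse with its own animal number. Acvr1b KO soleus and double KO soleus (Acvr1b and Tgfbr1 KO), 4 libraries each, shared the estimate of the spread, and the gastrocnemius medialis of the same mice was measured as well. The deposited values were read counts per gene, and the 8 libraries held between 32413723 and 41951506 counts. Levels below are counts scaled to library size (CPM) unless counts are named.

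Tgfbr1 encodes a type I receptor of the TGF-beta family, a kinase that joins a ligand-bound type II receptor and passes the signal to SMAD2 and SMAD3. Acvr1b encodes the type I receptor used mainly by activins, and myostatin and related ligands can signal through either receptor. In skeletal muscle this branch is known for restraining fibre growth. The soleus is a postural muscle rich in slow, oxidative fibres.

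The libraries carried the signature of soleus. Myh7, the slow myosin heavy chain, made up 20.5% to 30.4% of the length-scaled counts of the 4 adult heavy chain genes in Tgfbr1 KO soleus and 21.5% to 28.4% in control soleus, while in control gastrocnemius it made up 0.552% to 0.839%. Whole-muscle RNA mixes fibres with other cells, so fewer cells of a type and less RNA per cell cannot be told apart here. Among the 16 soleus libraries, double KO 1 stood apart on the leading axis of a multidimensional scaling plot (2.83, against −0.31 to −0.10 for the other 15), and values without it are given for the named genes whose call it changed.

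The knockout was not visible in the count of Tgfbr1 itself. Tgfbr1 (chromosome 4, 47353222 to 47414931, GRCm38) measured 20.6, 14.3, 13.9 and 13.8 CPM in Tgfbr1 KO soleus, against 18.5, 18.5, 14.9 and 16.4 CPM in control soleus. The groups overlapped, and Tgfbr1 KO 1 was the highest of the 8. The means were 15.7 ± 3.30 CPM and 17.1 ± 1.77 CPM (SD, n = 4 each), a log2 fold change of −0.12 with a 95% interval of −0.85 to 0.60. Whole-gene counts need not show the loss of a floxed exon, and cells other than fibres keep the gene, so this value does not check the labels. The whole-gene count of Acvr1b, by contrast, was lower in Acvr1b KO soleus than in Tgfbr1 KO soleus, as given below. The cause of this contrast was not tested.

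Of 18143 genes tested with edgeR's quasi-likelihood test, 9 passed an adjusted p of 0.05, which is 0.0496% of them, and all 9 were lower in Tgfbr1 KO soleus. None was higher by edgeR, where 200 genes (1.1%) were higher and 210 (1.16%) were lower at an unadjusted p under 0.05; DESeq2 called 19 genes, 2 of them higher. The 9 genes lie in a block of near-identical copies on chromosome 4, between 41893388 and 42589768, which is 4.76 to 5.46 Mb from Tgfbr1, with genes that were not called among them. They are pseudogenes, antisense transcripts, 1 predicted protein-coding gene (Gm21093) and 2 identifiers without a symbol, and the annotation gives them no function. All were rare transcripts. Their counts below are deposited fractions rounded to whole numbers, so a count of 0 can stand for a small fraction.

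Gm17081, an unprocessed pseudogene at 42239725 to 42242073, had 1, 1, 1 and 0 counts in Tgfbr1 KO soleus, against 49, 21, 18 and 36 counts in control soleus. No Tgfbr1 KO library came near the lowest control. The summed counts, scaled to library totals, were 2.22% of control with an exact 95% interval of 0.451% to 6.64% that covers counting error only, and edgeR gave a log2 fold change of −5.27 (SE 0.59, adjusted p = 0.00133). The neighbouring ENSMUSG00000118458 had 0, 0, 0 and 1 counts in Tgfbr1 KO soleus, against 49, 19, 16 and 35 in control soleus (log2 fold change −6.42, edgeR adjusted p = 0.00133). It followed the order of Gm17081 across the controls, with control 1 highest and control 3 lowest. Gm13301, a transcribed pseudogene, rounded to 0 counts in each of the 4 Tgfbr1 KO libraries, against 24, 12, 11 and 17 counts in control soleus. Its deposited values held fractions in 7 of the 8 libraries, so reads were not wholly absent. With a floor of 3 counts over the group it was at least 23.3-fold lower in Tgfbr1 KO soleus (edgeR adjusted p = 0.0232).

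The other 6 were Gm5859, Gm3892, Gm21093, ENSMUSG00000118603, Gm13302 and Gm10593, with edgeR log2 fold changes between −5.41 (Gm5859) and −3.61 (Gm10593) and adjusted p between 0.00195 and 0.0246. No count in Tgfbr1 KO soleus exceeded 2 for any of the 9 genes, and no count in control soleus was under 7. Summed over the 9 genes, the counts were 4, 5, 5 and 8 in Tgfbr1 KO soleus, against 278, 118, 104 and 198 in control soleus. Those sums were 4, 3, 0 and 7 in double KO soleus and 235, 179, 76 and 124 in Acvr1b KO soleus. The low sums were thus in the 8 soleus libraries labelled as lacking Tgfbr1, and the high sums in the 8 labelled as keeping it.

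**Figure D1:**
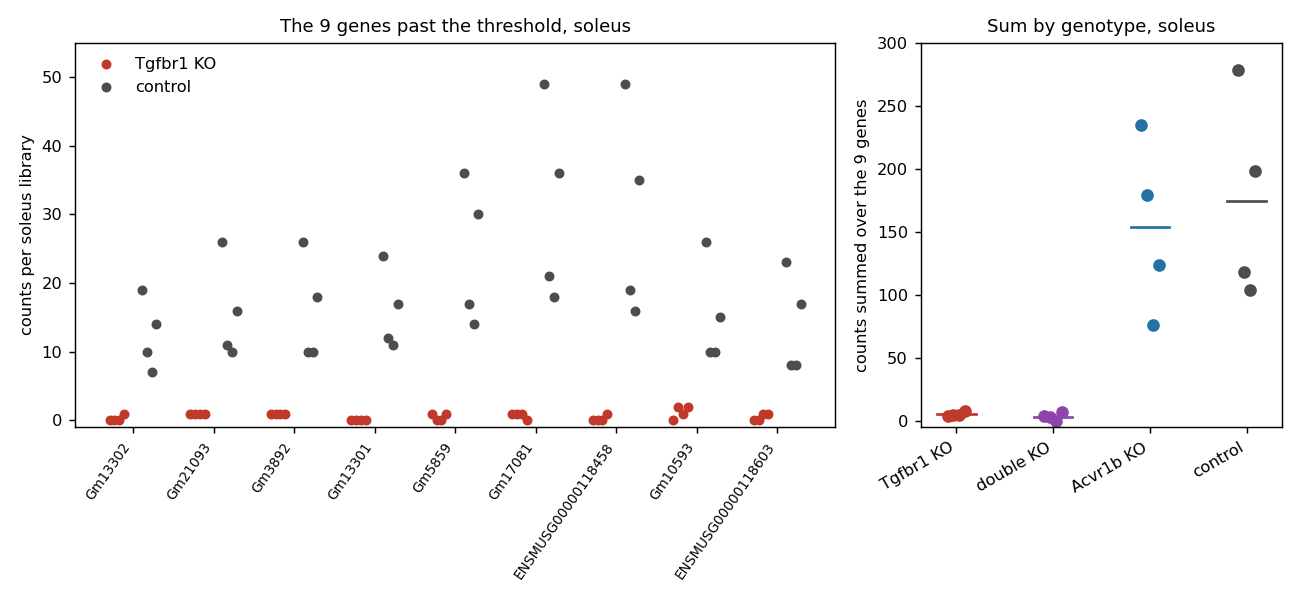
Left, counts per soleus library (y axis) of the 9 genes past the threshold (x axis), with Tgfbr1 KO in red left of control in grey. Right, the same counts summed over the 9 genes for each library of the 4 genotypes, with a line at the mean; Tgfbr1 KO (4 to 8) and double KO (0 to 7) lie below Acvr1b KO (76 to 235) and control (104 to 278).

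The sequences below show how alike the called genes are, for the 7 of the 9 that have a transcript in GENCODE M21. A window of 100 bases of Gm17081 at chr4:42240009-42240108 on the plus strand occurs in each of the other 6 with at most 3 differences. Of 379 windows compared, those matched in all 6 were ranked by their summed differences. The window shown is the median of that ranking and not the closest match. The sequences are from GRCm38, are written 5′ to 3′ along the transcript, and carry in capitals the bases that differ from Gm17081.
Gm17081: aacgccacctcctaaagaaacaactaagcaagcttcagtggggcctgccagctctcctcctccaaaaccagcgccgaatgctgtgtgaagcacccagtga
Gm13302: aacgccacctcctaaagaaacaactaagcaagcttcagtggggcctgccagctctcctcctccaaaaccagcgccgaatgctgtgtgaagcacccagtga
Gm3892: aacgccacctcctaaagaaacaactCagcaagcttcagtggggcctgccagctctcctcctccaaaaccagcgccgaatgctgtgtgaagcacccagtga
Gm13301: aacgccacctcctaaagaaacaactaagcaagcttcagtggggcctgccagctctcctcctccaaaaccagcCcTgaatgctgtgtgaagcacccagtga
Gm5859: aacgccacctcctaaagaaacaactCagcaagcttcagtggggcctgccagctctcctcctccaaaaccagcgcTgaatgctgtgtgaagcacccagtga
Gm21093: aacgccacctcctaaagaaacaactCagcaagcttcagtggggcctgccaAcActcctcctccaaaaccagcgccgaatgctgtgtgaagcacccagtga

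Gm13302, at chr4:41893641-41893740 on the plus strand, matched Gm17081 in all 100 bases. Gm10593 (chr4:42584948-42585047, plus strand) carried the same letters as Gm3892 (chr4:42087618-42087717, plus strand), 1 base away from Gm17081. Gm13301 (chr4:42234266-42234365) and Gm5859 (chr4:42237139-42237238) differed from it by 2 bases each, and Gm21093 (chr4:42034041-42034140), read on the minus strand, by 3. Across the annotation 11 genes held the window with at most 5 differences, and all 11 are on chromosome 4. The deposited table shared a read that aligned to several places among them as fractions, so values of genes that hold the window can rest in part on the same reads.

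The block as a whole held 20 tested genes between 41893388 and 42856771. All 20 had a log2 fold change below 0, and for 11 of them every Tgfbr1 KO library lay below every control, where 1.83% of all tested genes did. The 20 are not separate observations. Gm21541, Gm13304, Gm10591 and Ccl21b of this block carried the same rounded counts in all 8 libraries. Each summed to 113 in Tgfbr1 KO soleus and 113 in control soleus (log2 fold change −0.12). ENSMUSG00000118425 missed the threshold narrowly (edgeR adjusted p = 0.0502, 0.0266 without double KO 1, and 0.000322 by DESeq2). Its counts rounded to 0 in every Tgfbr1 KO library, against 20, 10, 6 and 14 counts in control soleus, and its deposited values held fractions in all 8. Among the other genes of the block that were not called were the receptor gene copy Il11ra2 (log2 fold change −0.14) and Ccl21a (−0.05), a chemokine that draws lymphocytes and dendritic cells. Gm12394, a further holder of the shared window, had 2, 4, 5 and 8 counts in Tgfbr1 KO soleus, against 20, 12, 12 and 16 in control soleus. It did not overlap between the groups and did not pass the threshold (log2 fold change −1.78, edgeR adjusted p = 0.537).

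Within 20 Mb of Tgfbr1, 248 genes were tested and 19 of them (7.66%) had an unadjusted p under 0.05, where 2.26% of all genes tested did and 2.16% of the genes on other placed chromosomes. Of these 19, 11 belong to the repeat block. Outside the block 8 of 228 genes (3.51%) had such a p. The smallest of these was that of Invs, which encodes inversin, a protein of primary cilia, and lies 0.865 Mb away. Invs was named here after its value was seen. It measured 3.05, 2.24, 1.69 and 2.82 CPM in Tgfbr1 KO soleus, against 1.11, 0.65, 1.499 and 0.90 CPM in control soleus. The lowest Tgfbr1 KO library was just above the highest control. The log2 fold change was 1.23 (SE 0.23), with an adjusted p of 0.118 by edgeR and 0.00138 by DESeq2. In gastrocnemius of the same mice Invs was higher by 1.22 on the log2 scale and passed the threshold (edgeR adjusted p = 0.001). Sequence that travels with the targeted allele and loss of the receptor cannot be told apart in this design, for Invs as for the repeat block.

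**Figure D2:**
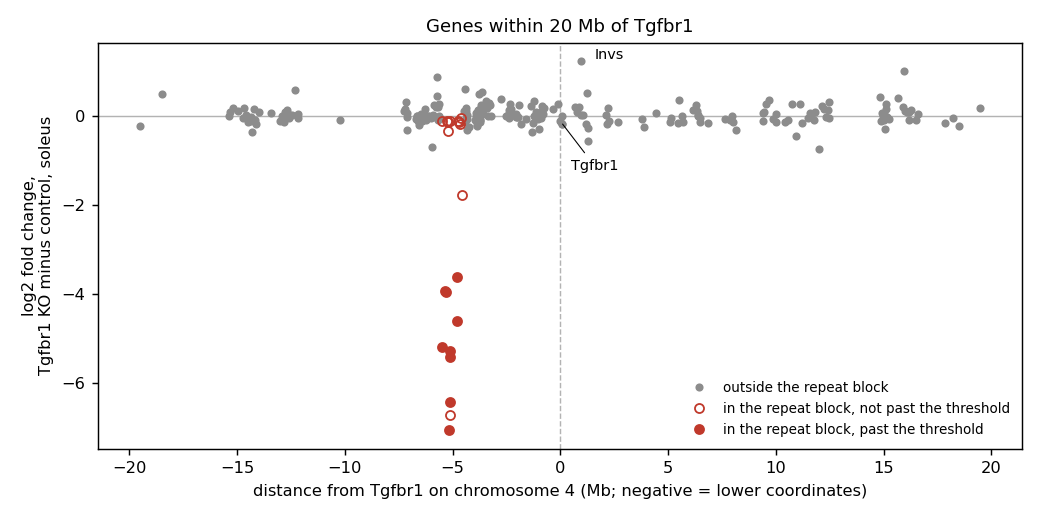
Log2 fold change between Tgfbr1 KO and control soleus (y axis) of the 248 genes tested within 20 Mb of Tgfbr1, against distance in Mb (x axis). Filled red points are the 9 genes past the threshold and open red points the other 11 genes of the repeat block; grey points are genes outside it, of which Invs is the highest at 1.23.

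Outside the repeat block no gene passed edgeR's threshold. Among the 9784 genes whose higher group averaged 5 CPM or more, the lower and upper quartiles of the log2 fold change were −0.07 and 0.07, and 22 genes differed by more than 1 on the log2 scale. The 12 lower and 12 higher genes with the smallest unadjusted p at that level, without overlap between the groups, are therefore given as values. Their adjusted p ran between 0.128 and 1 by edgeR. Against the same 4 controls, mean CPM was lower for 11 of the 12 lower genes in Acvr1b KO soleus. In double KO soleus it was lower for 12. Of the 12 higher genes, 11 had a higher mean in Acvr1b KO soleus and 12 in double KO soleus. The genes were picked with these same control libraries, so the directions are not independent of that choice.

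Of the 12 lower genes, 3 are on the list of glucocorticoid-responsive genes: Sgk1, Klf15 and Lcn2. Tiparp, an ADP-ribosyltransferase gene induced through the aryl hydrocarbon receptor, measured 48.4, 25.8, 30.1 and 23.5 CPM in Tgfbr1 KO soleus, against 60.9, 59.1, 60.1 and 67.4 CPM in control soleus. The groups did not overlap, and Tgfbr1 KO 1 lay nearest to the controls. The log2 fold change was −0.95 (SE 0.182), with an adjusted p of 0.128 by edgeR, 0.00209 by DESeq2 and 0.00252 by edgeR without Tgfbr1 KO 1. Sgk1, a kinase induced by glucocorticoids, measured 90.8, 94.8, 94 and 77.8 CPM in Tgfbr1 KO soleus, against 144, 134, 130 and 164 CPM in control soleus. All 4 Tgfbr1 KO values lay well under the lowest control. Its log2 fold change was −0.68 (SE 0.147) and its adjusted p was 0.332 by edgeR, 0.0188 by DESeq2 and 0.0266 by edgeR without double KO 1.

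Klf15, a transcription factor of amino acid and lipid use that glucocorticoids induce, measured 69.7, 65.8, 65.8 and 49.8 CPM in Tgfbr1 KO soleus, against 87.5, 95.9, 77.7 and 100.5 CPM in control soleus. The gap between the groups was narrow, 69.7 against 77.7 CPM (log2 fold change −0.53, SE 0.119, edgeR adjusted p = 0.432). Lcn2, which encodes the iron-siderophore carrier lipocalin 2, measured 4.39, 3.88, 3.67 and 3.18 CPM in Tgfbr1 KO soleus, against 12.96, 18.8, 17.05 and 21.9 CPM in control soleus. It had the lowest ratio of the 24 genes, with means of 3.78 ± 0.50 and 17.7 ± 3.73 CPM (SD, n = 4 each). Its log2 fold change of −2.23 (95% interval −3.39 to −1.06) did not pass the threshold with the spread shared over 16 libraries (edgeR adjusted p = 0.648). With only the 8 compared libraries in the fit its adjusted p was 0.00273.

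The other lower genes were the phosphatase Dusp26 (log2 fold change −0.61), the pseudokinase gene Trib1 (−0.86), the mRNA decay factor Zfp36 (−0.80), the volume-regulated channel subunit Lrrc8a (−0.54), the interleukin-6 receptor gene Il6ra (−0.72), the chromatin remodeller Chd9 (−0.33), Aldh16a1 (−1.02) and the survival factor Bcl2l1 (−0.65). Zfp36 measured 56.1, 39.9, 44.0 and 41.7 CPM in Tgfbr1 KO soleus, against 63.9, 78.7, 97.6 and 75.98 CPM in control soleus. Bcl2l1 measured 58.1, 45.9, 54.1 and 42.6 CPM in Tgfbr1 KO soleus, against 70.9, 78.8, 81.2 and 84.3 CPM in control soleus. In both genes the highest Tgfbr1 KO library was Tgfbr1 KO 1, as it was in Tiparp. Dusp26 and Trib1 passed the threshold by DESeq2 (adjusted p 0.00765 and 0.0329), and the others named in this paragraph did not.

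Slc25a33, a carrier that brings pyrimidine nucleotides into mitochondria and lies on chromosome 4 beyond 20 Mb from Tgfbr1, was named after its values were seen, since it passed the threshold in some alternatives. It measured 23.3, 21.1, 18.6 and 22.2 CPM in Tgfbr1 KO soleus, against 45.0, 46.1, 57.2 and 49.6 CPM in control soleus. Every control was well above every Tgfbr1 KO library. The log2 fold change was −1.22 (SE 0.335), with an edgeR adjusted p of 0.956. Without double KO 1 in the fit the adjusted p was 0.0011, and with only the 8 compared libraries it was 0.00275. In Acvr1b KO soleus it averaged 28.8 ± 6.395 CPM and in double KO soleus 34.3 ± 26.3 CPM (SD, n = 4 each).

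The higher genes had smaller or more variable differences. Pde10a, a cyclic nucleotide phosphodiesterase, measured 12.8, 14.2, 13.4 and 9.99 CPM in Tgfbr1 KO soleus, against 7.36, 8.36, 6.66 and 8.98 CPM in control soleus (log2 fold change 0.68, SE 0.156). Its adjusted p was 0.452 by edgeR and 0.0475 by DESeq2. Pck1, an enzyme of gluconeogenesis and of glycerol synthesis in fat, measured 16.8, 7.501, 9.78 and 20.3 CPM in Tgfbr1 KO soleus, against 6.16, 3.06, 4.14 and 2.22 CPM in control soleus. The Tgfbr1 KO values spread more widely than the control values, and the groups did not overlap (log2 fold change 1.80, 95% interval 0.43 to 3.18). Tmem131l, which encodes a transmembrane protein, measured 40.4, 40.3, 41.9 and 41.4 CPM in Tgfbr1 KO soleus, against 30.8, 29.5, 19.2 and 29.3 CPM in control soleus. The 4 Tgfbr1 KO values were close together, while control 3 lay below the other controls. The remaining 9 were Yeats2, Bahcc1, Slc22a3, Tdrd7, Abca3, Cpt1a, Maf, Rnf213 and Arhgef40, with log2 fold changes of 0.23 to 1.27. Tdrd7 (log2 fold change 0.23) lies on chromosome 4, within 20 Mb of Tgfbr1, where linked sequence cannot be told apart from receptor loss. Among the 9, Cpt1a, which admits long-chain fatty acids to mitochondria, averaged 12.3 ± 0.80 CPM in Tgfbr1 KO soleus and 9.21 ± 1.28 CPM in control soleus (SD, n = 4 each).

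**Figure D3:**
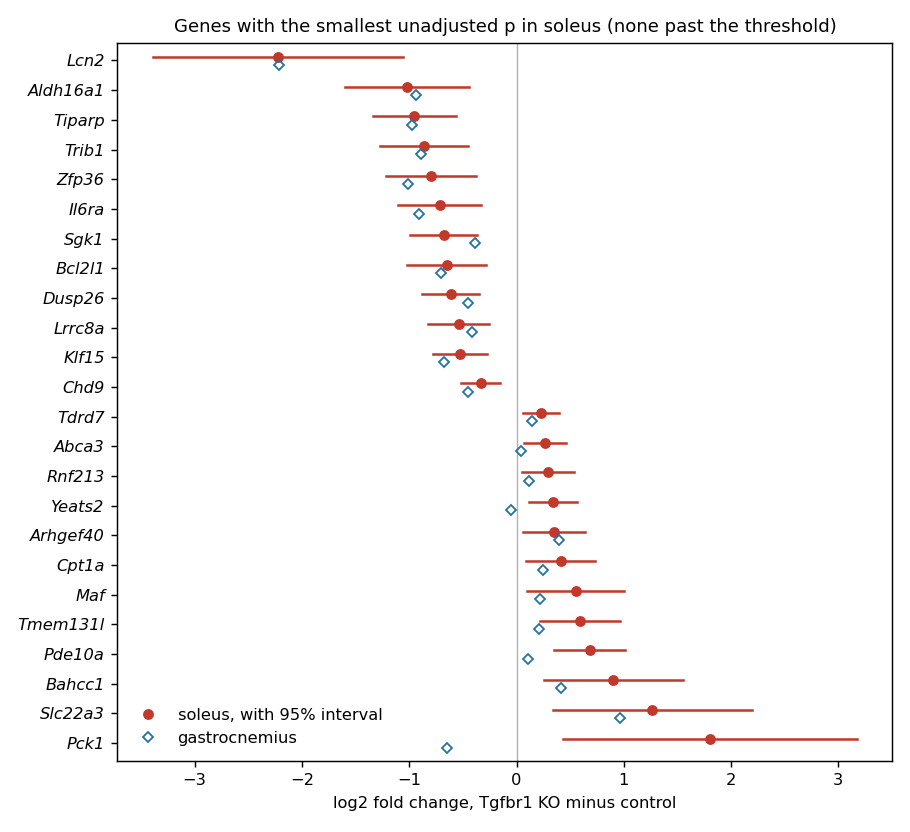
Log2 fold change between Tgfbr1 KO and control (x axis) of the 12 lower and 12 higher genes (y axis) with the smallest unadjusted p in soleus: red points with 95% intervals for soleus, open diamonds for gastrocnemius of the same mice. The soleus values run between −2.23 (Lcn2) and 1.80 (Pck1), and none passed the threshold.

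The list of glucocorticoid-responsive genes lay on the lower side without a gene called by edgeR. All 20 members were measured, none passed edgeR's threshold, and DESeq2 called 2 of them, Sgk1 and Klf15. The log2 fold change was below 0 for 19 of 20, the list's median was −0.43 where the median of all tested genes was 0.01, and 9 members were lower at an unadjusted p under 0.05, where 1.16% of all genes were. In 10 members every Tgfbr1 KO library lay below every control, where 1.83% of all tested genes did. Ddit4, an inhibitor of mTOR signalling, measured 74.3, 40.6, 50.1 and 46.6 CPM in Tgfbr1 KO soleus, against 98.4, 105, 110 and 99.2 CPM in control soleus. Gadd45b and Gadd45g, stress sensors that bind cell cycle and kinase partners, had log2 fold changes of −1.23 and −0.99. Gadd45b measured 24.1, 18.6, 16.9 and 10.7 CPM in Tgfbr1 KO soleus, against 37.6, 37.6, 51.3 and 38.7 CPM in control soleus. Its adjusted p by edgeR was 0.933, and 0.0266 without double KO 1. The metallothioneins Mt1 and Mt2, which bind zinc and copper, had log2 fold changes of −0.98 and −1.06, again without overlap between the groups.

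Other members of the list did not separate. Fkbp5, a chaperone that is a common readout of the glucocorticoid receptor, measured 143, 160, 136 and 126 CPM in Tgfbr1 KO soleus, against 206, 196, 160 and 247 CPM in control soleus, and overlapped at Tgfbr1 KO 2 and control 3. Tsc22d3, which encodes the glucocorticoid-induced leucine zipper, had a log2 fold change of −0.18 (95% interval −0.59 to 0.24). The interval for Zbtb16 was −0.34 to 0.19, and that for Pdk4, the kinase that shuts down pyruvate oxidation, was −0.61 to 0.55. The list was chosen with earlier results of these data known and its members were not tested as a set.

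**Figure D4:**
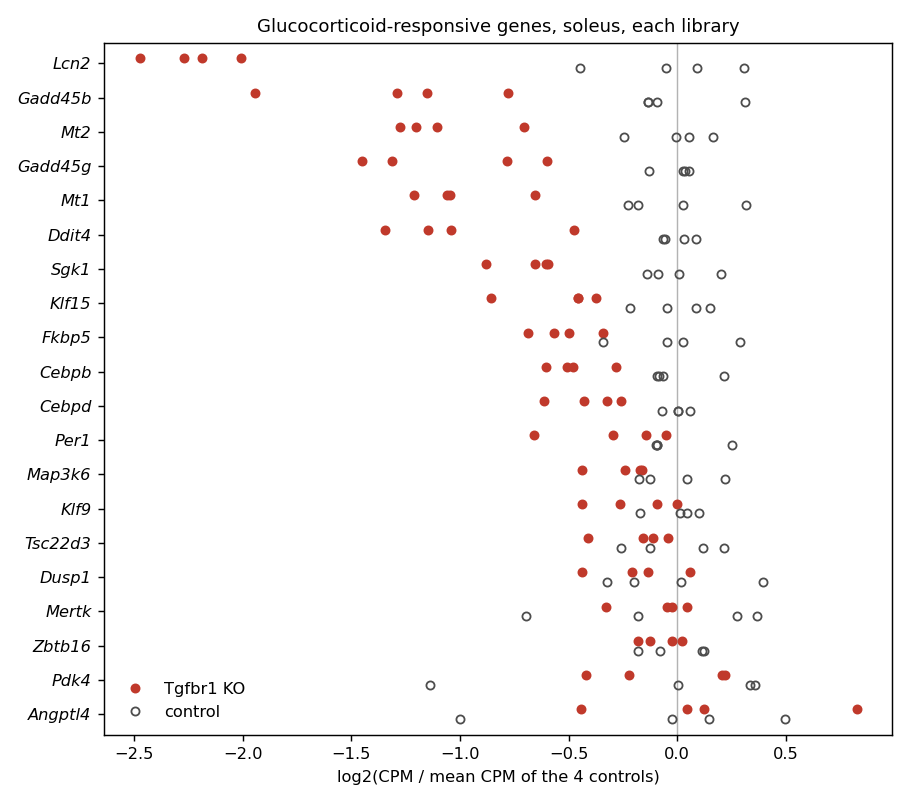
Level of each glucocorticoid-responsive gene (y axis) in each soleus library as log2 of CPM over the mean of the 4 controls (x axis), Tgfbr1 KO as filled red and control as open grey points. From Lcn2 to Klf15 and for Cebpb and Cebpd all Tgfbr1 KO libraries lie below all controls, while Pdk4 and Angptl4 are mixed.

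Immediate early genes, which cells switch on within minutes of a stimulus, showed a weaker pattern. Of 25 measured members 19 had a log2 fold change below 0, with a median of −0.22, and none passed edgeR's threshold. Btg2, an antiproliferative factor, measured 36.5, 39.7, 45.1 and 32.2 CPM in Tgfbr1 KO soleus, against 46.9, 66.8, 107 and 57.0 CPM in control soleus. Control 3 was the highest library for Btg2 and also for Egr1, with 42.8 CPM, where the other 7 libraries had 6.13 to 11.9 CPM. Without control 3 the median of the list was 0.02. Between libraries of 1 group Atf3 varied more than between the groups, with 11.8 to 232 CPM in Tgfbr1 KO soleus and 11.03 to 110 CPM in control soleus.

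The receptor's own pathway showed no called gene. Of 20 measured TGF-beta and activin target genes 12 had a log2 fold change above 0 and 8 below, with a median of 0.08. Smad7, the inhibitory SMAD that the pathway induces, measured 3.29, 3.85, 2.90 and 3.85 CPM in Tgfbr1 KO soleus, against 3.47, 3.09, 4.36 and 3.52 CPM in control soleus. Its interval of −0.45 to 0.34 includes 0, as do those of Ccn2 (−1.02 to 0.68), Col1a1 (−0.95 to 1.17) and Skil (−0.39 to 0.52). These genes are expressed by several cell types of the muscle, and the share from fibres was not measured.

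None of 18 receptor and SMAD genes and none of 26 ligand and antagonist genes passed edgeR's threshold, and the medians of the log2 fold change were 0.03 and 0.07. Acvr1b, the other type I receptor of the branch, measured 26.9, 36.9, 26.1 and 28.4 CPM in Tgfbr1 KO soleus, against 49.4, 45.1, 31.9 and 49.2 CPM in control soleus. The groups overlapped at control 3, and the log2 fold change was −0.57 (95% interval −0.92 to −0.22, edgeR adjusted p = 1.00). Tgfbr2, the type II receptor for TGF-beta, had an interval of −0.19 to 0.51. Mstn, which encodes myostatin, measured 1.86, 4.71, 4.75 and 0.85 CPM in Tgfbr1 KO soleus, against 3.11, 4.06, 5.75 and 1.55 CPM in control soleus. Inhba, the activin A subunit gene, stayed between 1.398 and 2.102 CPM in all 8 libraries. Of the BMP targets, 10 were measured with a median of 0.02, and Smad9 alone had an unadjusted p under 0.05 (log2 fold change 1.48) at levels of at most 0.32 CPM.

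The myosin shares of the groups differed by less than the spread between mice. Myh7 made up 24.5% ± 4.73 of the length-scaled counts of the 4 adult myosin heavy chains in Tgfbr1 KO soleus and 24.03% ± 3.08 in control soleus (SD, n = 4 each). Myh2, the heavy chain of fast oxidative fibres, made up 44.8% ± 2.04 in Tgfbr1 KO soleus and 43.1% ± 3.35 in control soleus. The share of Myh1 was 23.6% ± 2.92 in Tgfbr1 KO soleus and 25.7% ± 2.37 in control soleus. Myh4, the heavy chain of the fastest fibres, made up 7.11% ± 5.94 in Tgfbr1 KO soleus and 7.22% ± 4.17 in control soleus. Exact 2-sided permutation tests gave p between 0.286 and 1 for the 4 shares and the mitochondrial share, adjusted to 1 over the 5, and 4 against 4 libraries allow no p below 0.0286. Among 19 slow-fibre genes 13 had a log2 fold change below 0 (median −0.04), and among 19 fast-fibre genes 15 did (median −0.09), with no member called by edgeR in either list. Sln, which encodes sarcolipin, an inhibitor of the calcium pump, measured 37.3, 29.9, 33.96 and 30.9 CPM in Tgfbr1 KO soleus, against 24.5, 21.9, 32.6 and 20.1 CPM in control soleus. Mylk2, the myosin light chain kinase of skeletal muscle, measured 284, 260, 276 and 189 CPM in Tgfbr1 KO soleus, against 358, 368, 292 and 365 CPM in control soleus. Neither passed the threshold.

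**Figure D5:**
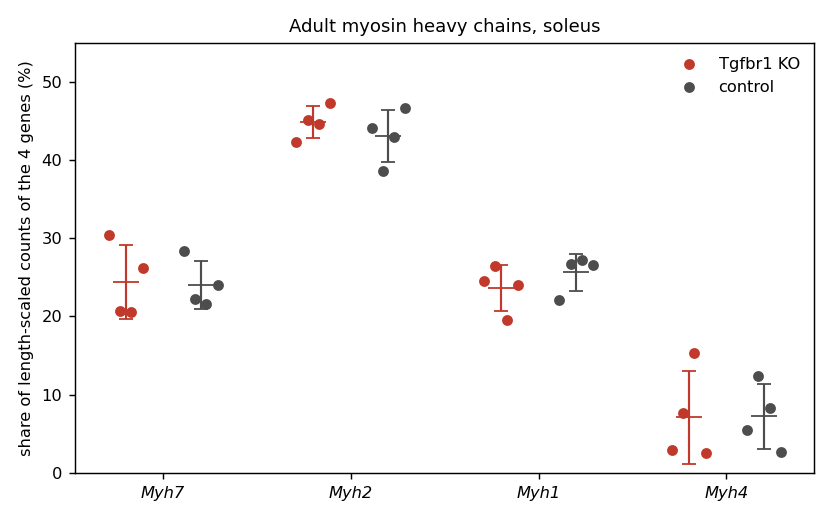
Share of each adult myosin heavy chain gene in the length-scaled counts of the 4 (y axis, percent) for each gene (x axis), with Tgfbr1 KO in red left of control in grey. Points are libraries and bars are means with SD (n = 4 each); the groups overlap for all 4 genes.

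Growth, atrophy and metabolism lists held no called gene by edgeR. Of 20 ubiquitin ligase and FoxO target genes 13 had a log2 fold change below 0 (median −0.09). Foxo1, a transcription factor of fasting and atrophy, measured 95.1, 104, 95.7 and 82.3 CPM in Tgfbr1 KO soleus, against 118, 136, 99.6 and 147 CPM in control soleus. It overlapped at Tgfbr1 KO 2 and control 3 (log2 fold change −0.41). Trim63, the muscle ubiquitin ligase MuRF1, measured 209, 185, 250 and 143 CPM in Tgfbr1 KO soleus, against 258, 326, 434 and 293 CPM in control soleus. All Tgfbr1 KO libraries lay below all controls, and the 95% interval of its log2 fold change of −0.74 was −1.63 to 0.16. The sums over the list did not overlap either, with 2253 to 2608 CPM in Tgfbr1 KO soleus and 2755 to 2953 CPM in control soleus. Sums of every other list overlapped, and this list shares Mt1 and Mt2 with the glucocorticoid-responsive list. In the IGF, Akt and mTOR list of 33 the median was 0.03, and Sesn1, a nutrient sensor that restrains mTOR complex activity, measured 69.1, 46.9, 57.9 and 36.6 CPM in Tgfbr1 KO soleus, against 81.8, 74.9, 84.5 and 83.3 CPM in control soleus. Ppp1r3c, which targets a phosphatase to glycogen, measured 778, 640, 824 and 525 CPM in Tgfbr1 KO soleus, against 1160, 1294, 895 and 1602 CPM in control soleus. The groups of Sesn1 and of Ppp1r3c did not overlap, and neither gene passed the threshold. Over the 38 genes of glycolysis and glycogen measured, the median was 0.00.

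Oxidative genes lay close to 0. The 76 nuclear-encoded respiratory chain genes had a median of −0.05 with a range of −0.15 to 0.07, and 63 of them were below 0. The mitochondrial chromosome supplied 17.4% ± 2.14 of counts in Tgfbr1 KO soleus and 17.5% ± 0.96 in control soleus (SD, n = 4 each). The TCA cycle (31 genes, median 0.02) and fatty acid lists (34 genes, median 0.01) were balanced around 0. Cytosolic ribosomal protein genes lay slightly below 0 in nearly every case, with none called. Of 82 measured, 79 had a log2 fold change below 0, with a median of −0.10 and a lowest value of −0.27. In 13 of them all Tgfbr1 KO libraries lay below all controls, where 1.83% of all genes did, and none had an unadjusted p under 0.05. These genes vary together within a library, so their count is not that of independent genes.

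Marker lists of other cell types held no gene called by edgeR, and the sums of each list overlapped between the groups. The 12 Schwann cell and nerve markers summed to 97.2, 118, 114 and 704 CPM in Tgfbr1 KO soleus, against 110, 101.6, 254 and 104 CPM in control soleus. Tgfbr1 KO 4 alone held the high value, with 64.4 CPM of Prx, a scaffold protein of myelinating Schwann cells, where the other Tgfbr1 KO libraries had 5.79 to 9.18 CPM. The list's median log2 fold change was 0.59 with that library and −0.49 without it. All 12 adipocyte markers measured had a log2 fold change above 0 (median 0.42), though their sums overlapped, with 2077 to 3422 CPM in Tgfbr1 KO soleus and 1702 to 2519 CPM in control soleus. Car3, a carbonic anhydrase gene that slow fibres also express, made up 61.1% to 78.7% of these sums in Tgfbr1 KO soleus and 70.1% to 83.6% in control soleus. Without Car3 the sums were 568 to 884 CPM in Tgfbr1 KO soleus and 313 to 753 CPM in control soleus. Fibroblast markers (13 of 15 above 0, median 0.17), extracellular matrix genes (30 of 34, median 0.16) and macrophage markers (12 of 15, median 0.23) were similar, and control 2 held the lowest matrix sum, 1569 CPM, where the other 7 libraries had 2311 to 3339 CPM. Without control 2 the matrix median was −0.01. The 5 neutrophil markers measured were below 0 (median −0.65) with sums of 3.503 to 10.6 CPM in Tgfbr1 KO soleus and 8.22 to 12.97 CPM in control soleus; 6 further markers of that list were too low to test. Lcn2 is also a neutrophil and acute-phase gene, and the part of these cells in its value was not tested. Pax7, which marks satellite cells, the stem cells of muscle, measured 2.72, 1.74, 2.00 and 2.24 CPM in Tgfbr1 KO soleus, against 1.19, 1.66, 1.22 and 1.38 CPM in control soleus, without overlap and without passing the threshold (log2 fold change 0.68, edgeR adjusted p = 1.00).

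The gastrocnemius of the same mice was set beside the soleus. There 30 of 17536 genes (0.171%) passed the threshold, 27 lower (0.154%) and 3 higher (0.0171%) in Tgfbr1 KO, and they included all 9 genes called in soleus. Of the 12 lower genes given above, 12 had a log2 fold change below 0 in gastrocnemius and 11 of them had an unadjusted p under 0.05, where 3.65% of all genes were lower at that level. Klf15 passed the threshold there (log2 fold change −0.67, edgeR adjusted p = 0.0433). Of the 12 higher genes, 10 were above 0 in gastrocnemius and 2 of these had an unadjusted p under 0.05, where 2.35% of all genes were. The glucocorticoid-responsive list had a median of −0.45 in gastrocnemius. The muscles came from the same 8 mice and are not separate animals.

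A direct test of the difference between the muscles called 0 of 18726 genes by edgeR, with 257 genes (1.37%) at an unadjusted p under 0.05, and DESeq2 also called 0, with 224. The largest gap among the named genes was that of Pck1, whose log2 fold change was 1.80 in soleus and −0.65 in gastrocnemius. In gastrocnemius it averaged 1.04 ± 0.64 CPM in Tgfbr1 KO and 1.68 ± 0.64 CPM in control (SD, n = 4 each). The difference of the effects was 2.45 (SE 0.885, unadjusted p = 0.00971, edgeR adjusted p = 1.00). The adipocyte list had opposite medians, 0.42 in soleus and −0.80 in gastrocnemius; Pck1 is expressed by fat cells, and their part in its value was not tested.

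Tgfbr1 KO soleus was also compared directly with Acvr1b KO soleus. Of 18143 genes 12 passed the threshold (0.0661%), 3 of them higher (0.0165%) and 9 lower (0.0496%) in Tgfbr1 KO; without double KO 1 in the fit 17 passed, 4 higher and 13 lower. Among the 9 lower genes were 8 of the chromosome 4 block. Acvr1b averaged 29.6 ± 4.95 CPM in Tgfbr1 KO soleus and 13.6 ± 1.48 CPM in Acvr1b KO soleus (SD, n = 4 each; log2 fold change 1.13, edgeR adjusted p = 0.0111). Slc4a8, a bicarbonate transporter gene near Acvr1b on chromosome 15, averaged 8.73 ± 1.25 CPM in Tgfbr1 KO soleus and 3.72 ± 0.41 CPM in Acvr1b KO soleus (log2 fold change 1.23, edgeR adjusted p = 0.00623). The glucocorticoid targets did not pass the threshold between the single knockouts. Sgk1 averaged 89.3 ± 7.88 CPM in Tgfbr1 KO soleus and 105 ± 14.4 CPM in Acvr1b KO soleus, and Klf15 62.8 ± 8.82 CPM in Tgfbr1 KO soleus and 75.02 ± 6.06 CPM in Acvr1b KO soleus. Their adjusted p was 0.999 by edgeR.

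Against double KO soleus, 9 genes passed the threshold (0.0496%), 3 of them higher (0.0165%) and 6 lower (0.0331%) in Tgfbr1 KO. Acvr1b was higher, with 29.6 ± 4.95 CPM in Tgfbr1 KO soleus and 9.40 ± 1.86 CPM in double KO soleus (log2 fold change 1.65, edgeR adjusted p = 0.000399). Pfkfb3, which makes the activator of glycolysis fructose 2,6-bisphosphate, was lower, with 19.7 ± 4.32 CPM in Tgfbr1 KO soleus and 66.6 ± 28.7 CPM in double KO soleus (log2 fold change −1.76, edgeR adjusted p = 0.0395). Without double KO 1 the log2 fold change was −1.44 and the adjusted p 0.0612. No gene of the chromosome 4 block was called by edgeR in this comparison, 1 of its 20 genes had an unadjusted p under 0.05 where 9.13% of all genes did, and all 8 libraries lack Tgfbr1 by label. The 9 genes called against control summed to 22 counts in Tgfbr1 KO soleus and 14 in double KO soleus. At such low counts this comparison could hardly have called them. Tiparp averaged 31.9 ± 11.3 CPM in Tgfbr1 KO soleus and 25.7 ± 3.52 CPM in double KO soleus (SD, n = 4 each). Bcl2l1 averaged 50.2 ± 7.15 CPM in Tgfbr1 KO soleus and 32.4 ± 4.44 CPM in double KO soleus. Neither difference passed the threshold.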

How the data were processed

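PolyA RNA of whole soleus was sequenced by the submitters, and 1 series table of estimated counts per gene was used. Reads were assigned with featureCounts 2.0.1 to Ensembl 102 gene models on GRCm38, on the reverse strand, with a read that aligned to several places shared as fractions, per the file headers, so the authors' deposited values are estimated counts with decimals. Genes with near-identical copies therefore share reads. The table also gives gene length in bases. The submitters' processing notes name cutadapt, HISAT2, FastQC 0.11.9 and DESeq2, with no role stated for the last.

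Counts were rounded to whole numbers here. Groups followed the labelled tissue and genotype, and 55227 of 55487 identifiers were given symbols from GENCODE M21. Genes were kept by filterByExpr, which left 18143 in soleus, scaled by TMM and tested with edgeR 4.0.16 (R 4.3.3; robust glmQLFit, glmQLFTest, 2-sided) over all 16 soleus libraries with 1 mean per genotype and 12 residual degrees of freedom. Adjustment was by Benjamini and Hochberg over all genes tested, at a threshold of 0.05, and a log2 fold change is Tgfbr1 KO minus control. Intervals at 95% came from the same fit. The difference between muscles was fitted over all 32 libraries. Shares were compared by exact permutation over the 8 libraries. The edgeR step was tested on simulated counts, with changes placed only in well-counted genes. It was thus not tested on rare transcripts such as the called genes. The permutation step was checked on a fixed set of known values.

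The genes and gene lists were chosen with earlier results of these data known. Named genes were Tgfbr1, Acvr1b, Mstn, Inhba and 4 myosin heavy chains, every called gene, the 12 lower and 12 higher genes with the smallest unadjusted p among those that averaged 5 CPM or more in either group and whose groups did not overlap (protein-coding or with an established symbol, not on X or Y), up to 3 members of each list by p and 2 by level, and for comparisons between knockouts called genes with at least 5 CPM. Invs, Slc25a33, Gm12394, Egr1, Atf3 and further list members were named after their values were seen. A few list members are not reported here. Alternatives were DESeq2 1.42.0, RLE size factors, other filters on low counts, only the 8 compared libraries, a replicate block, no robust option, genes near the floxed loci left out, and each library left out; 1 was added after seeing the data, a fit without double KO 1, and for gastrocnemius DESeq2, the block and each library left out were added likewise.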

Additional observations from a re-analysis of the deposited data

Results flagged for a closer look

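The screen covered 126 groups of 4 soleus libraries in Tgfbr1 KO or control. They were a fixed set of the reported genes, the shares and some of the list sums. Other reported genes, such as Egr1 and Atf3, were not screened. In each group the library farthest out was set against the range of its group, and chance marks about 1 group in 20. The library Tgfbr1 KO 4 was far above the other 3 for the Schwann cell and nerve markers, with a sum of 704 CPM against 97.2 to 118 CPM, and for Prx (64.4 CPM against 5.79 to 9.18), a scaffold protein of myelinating Schwann cells. Control 3 was far above the other controls for the same sum (254 CPM against 101.6 to 110) and for Prx (20.2 CPM against 6.70 to 7.08). Tgfbr1 KO 1 was the high library for Tgfbr1 (20.6 CPM against 13.8 to 14.3) and the low one for Dusp26 (10.1 CPM against 14.03 to 14.6).

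Among the controls, the high library was control 3 for Gadd45b (51.3 CPM) and control 4 for Cebpb (67.2 CPM), and the low library was control 2 for Gadd45g (54.5 CPM), control 3 for Tmem131l (19.2 CPM) and for Mylk2 (292 CPM), and control 1 for the share of Myh1 (22.1%). In the repeat block Tgfbr1 KO 4 was apart by a single rounded count. Gm17081 was at 0 CPM there. ENSMUSG00000118458 and Gm13302 were at 0.0229 CPM each where the other Tgfbr1 KO libraries rounded to 0. The deposited values of these 2 genes held fractions in all 8 libraries, so the 0 values come from rounding. The cause of these outlying values was not tested.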

How the results depend on the processing

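The 9 genes called in soleus were all lower in Tgfbr1 KO under each of the 130 gene and alternative pairs in which they could be fitted, and in 27 of these pairs the gene no longer passed the threshold. The number of genes called between Tgfbr1 KO and control soleus was 19 by DESeq2, 17 with no filter on low counts, 0 with at least 1 CPM asked in 4 libraries, which removes the 9 called genes, 0 without the genes near Tgfbr1 and Acvr1b and on unplaced scaffolds, 6 with only the 8 compared libraries, and 18 without double KO 1, a choice made after seeing the data. Leaving out 1 library gave 4 to 15 genes: 15 without control 3, 5 without control 1, control 4, Tgfbr1 KO 2 or Tgfbr1 KO 3, and 4 without Tgfbr1 KO 4. Those within 20 Mb of Tgfbr1 numbered 0 with the stricter filter and without that region, 3 with only the 8 libraries, and 4 to 13 with 1 library left out. Those beyond it and off scaffolds were 8 by DESeq2, 1 with no filter (Tiparp), 3 with only the 8 libraries (Lcn2, Slc25a33, Mt2), 3 without double KO 1 (Slc25a33, Sgk1, Gadd45b) and 0 to 1 with 1 library left out; list members called were 2 in each case by DESeq2, with the 8 libraries and without double KO 1. Against Acvr1b KO soleus DESeq2 called 21 genes and leaving out 1 library gave 7 to 15, with 7 without Tgfbr1 KO 2 or Acvr1b KO 2. Against double KO soleus DESeq2 called 84, and leaving out 1 library gave 4 to 11, with 4 without Tgfbr1 KO 1, 3 or 4 and 5 without double KO 3. In gastrocnemius DESeq2 called 57. The replicate block gave 10 genes in soleus; same-numbered libraries correlated by −0.03 to 0.05 in their deviations from the group means, so the numbers do not pair them. With the animal as a replicate block the test between muscles called 0 genes, with 429 at an unadjusted p under 0.05. RLE factors left 9 genes. For the 5 shares the lowest adjusted p under any alternative was 0.286. The cause of these differences was not tested. Genes under about 1 CPM rest on a few counts, and the 4 mice per group limit what could be called.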

Other observations

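Other gene groups of muscle held no gene called by edgeR and had medians near that of all genes. Of 23 genes of denervation and the neuromuscular junction 14 had a log2 fold change below 0 (median −0.02), and of 13 embryonic and perinatal myofibre genes 8 did (median −0.05). The dystrophin-glycoprotein complex had a median of 0.08 with 14 of 19 genes above 0, and calcium handling and excitation genes had a median of 0.01 with 15 of 29 above 0. Regulators of mitochondrial biogenesis had a median of 0.05 with 18 of 27 above 0. Circadian clock genes had a median of 0.07, with 12 of 19 above 0. In that list 2 members were higher at an unadjusted p under 0.05, where 1.1% of all genes were. The unfolded protein and heat shock list had a median of −0.01 over 29 genes, and the interferon response list 0.05 over 27 genes.

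Among markers of vessels and blood, the endothelial list had a median of 0.12 with 9 of 14 above 0, and smooth muscle and pericyte markers were split 5 above and 6 below. All 6 erythroid markers measured were below 0 (median −0.25), with sums of 392.3 to 958 CPM in Tgfbr1 KO soleus and 337 to 1513 CPM in control soleus, and control 1 held the highest sum. Tenocyte markers had 8 of 10 above 0 (median 0.06) with sums of 506 to 678 CPM in Tgfbr1 KO soleus and 268 to 985 CPM in control soleus.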
